A study of Caenorhabditis elegans with 26 samples.

Results

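Of the 28 patched-related genes of C. elegans in the count table, 10 were followed in whole worms of the wild-type strain N2. The libraries were titled 18 to 36 h, so earlier larval life was not covered. The 10 genes were chosen by gene name, with earlier results of these data known. The genes were ptc-1 (WBGene00004208), ptc-3 (WBGene00004210), ptr-2 (WBGene00004217), ptr-4 (WBGene00004219), ptr-16 (WBGene00004230), ptr-18 (WBGene00004232), ptr-22 (WBGene00004236), ptr-23 (WBGene00004237), daf-6 (WBGene00000902) and che-14 (WBGene00000493), joined to the WormBase identifiers of the count table. All 10 were found among the 20182 genes of the table, and all 10 had enough counts to be tested in both time courses.

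Patched is a many-pass membrane protein with a sterol-sensing domain, known in flies and vertebrates as the receptor of the signalling protein Hedgehog. C. elegans has close Patched relatives, a large family of patched-related (PTR) proteins and many Hedgehog-related secreted proteins, but no Smoothened, the protein through which Patched signals in other animals. Many PTR proteins are made by the skin and by other epithelia that face the cuticle, and several are needed when the larva builds a new cuticle and sheds the old one at each molt.

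Eggs were left overnight to hatch, and the larvae were put on plates and harvested after set times. Course A was raised on NGM plates seeded with OP50 bacteria, and its 16 libraries, titled 21 to 36 h, were taken 1 h apart. Course B was raised on peptone-rich NGM with NA22 bacteria, and its 10 libraries, titled 18 to 36 h, were taken 2 h apart. Course A was harvested 1 h later than its titles say, and the times given here are those of the titles. All animals carried the same unmodified genotype, and bacterium and medium, and anything else that set the 2 courses apart, change together with the course. Each time was sampled once, so every p-value measures how single libraries scatter about a fitted curve and not how cultures vary.

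The library totals were 16241561 to 29911888 counts for course A and 22587893 to 36083371 for course B, and 3 counts, the limit that a count of 0 allows, equal 0.0942 to 0.184 CPM (each library's counts as a share of its TMM-adjusted total, times 1000000) depending on the library. Markers of skin, neurons, body wall muscle, gut, pharynx and germline were present with counts in all 26 libraries, 5 of 5 for each tissue. Of 5 glial and duct markers 4 were in the table, and ver-1 had a count of 0 in some libraries. The summed level of the skin markers was 96.6 to 1798 CPM across course A and 161 to 2788 CPM across course B, and that of the glial and duct markers was 41.9 to 221 and 67.9 to 320 CPM. The skin markers included the cuticle collagen gene rol-6, and the glial and duct markers included ptr-10, a patched-related gene that itself cycled. These sums therefore do not measure the amount of a tissue. The part of these tissues in the results below was not tested. In the Ensembl annotation of assembly WBcel235, no other gene shares exon bases with any of the 10 genes.

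The first question was which of the genes repeat a cycle of 8 h. A straight line in time plus a cosine and sine with a period of 8 h was fitted to the counts of each course. A gene was called cycling at an adjusted p under 0.05 (edgeR quasi-likelihood F test, Benjamini-Hochberg over all genes tested) and a swing, the log2 difference between peak and trough of the curve, of 1 or more. In both courses 8 of the 10 genes cycled, namely ptr-4, daf-6, che-14, ptc-3, ptr-18, ptr-16, ptr-2 and ptr-23. Of all genes tested, 22.8% cycled in course A, 21% in course B and 16.5% in both. The 10 genes had a median swing of 3.42 (course A) and 3.52 (course B), beside 0.59 and 0.56 over all genes tested (log2).

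**Figure D1:**
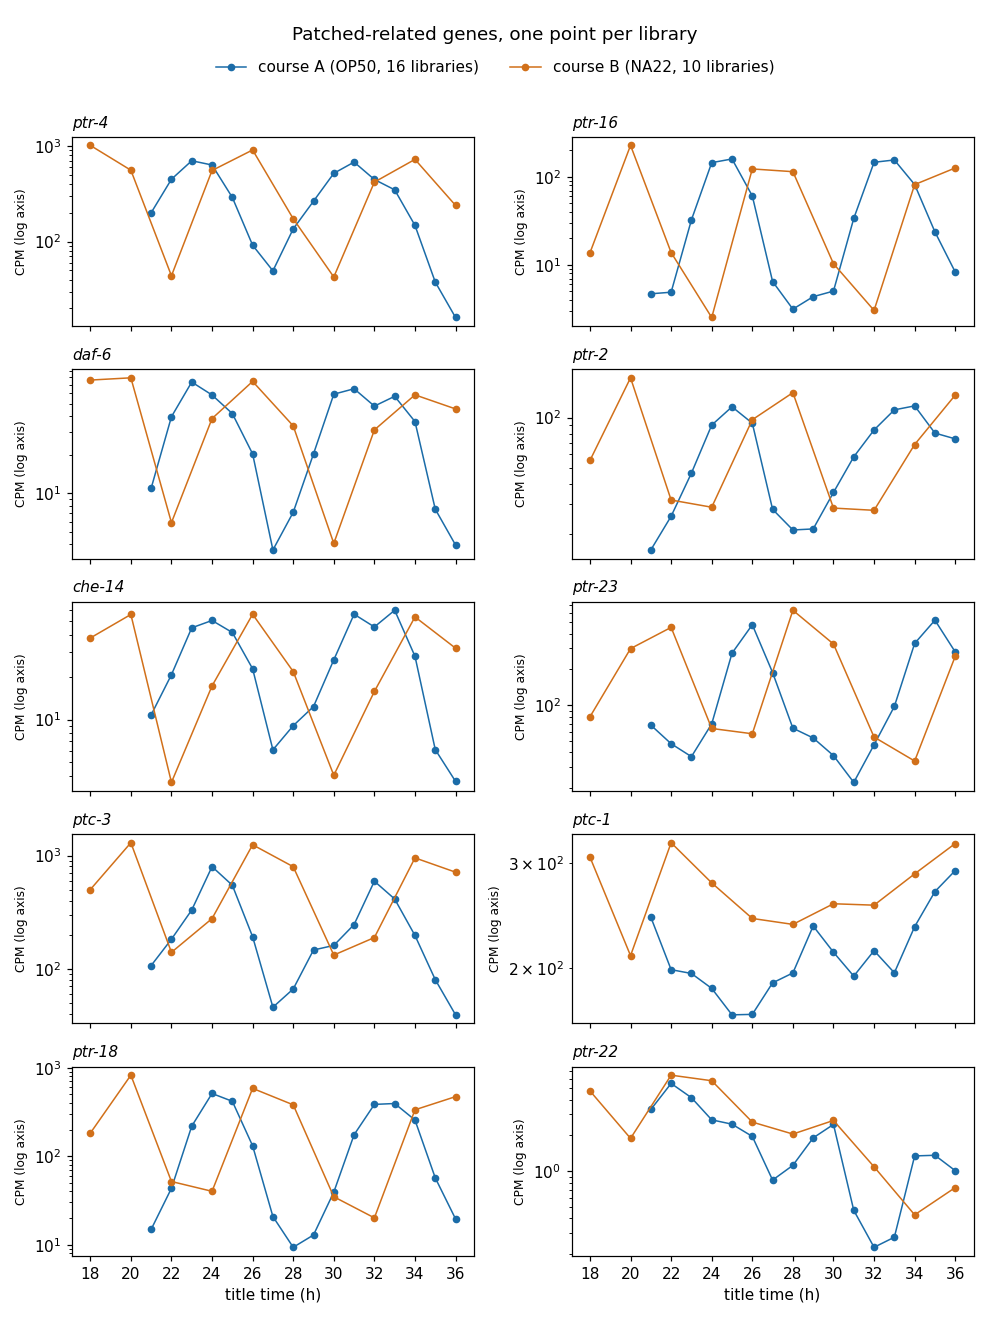
Level of each gene in CPM (log axis) against title time in hours, 1 point per library, with course A (16 libraries) in blue and course B (10 libraries) in orange. In 8 panels the level rises and falls every 8 h or so and course B lies to the right of course A, while ptc-1 stays between 167 and 325 CPM and ptr-22 reaches at most 6.43 CPM.

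Earliest in the cycle was ptr-4, which encodes a PTR protein needed for molting and for an intact apical matrix. In course A its level was 701 CPM at 23 h, 49.5 CPM at 27 h, 679 CPM at 31 h and 16.1 CPM at 36 h, the last being the lowest of the 16 libraries, and the median was 277 CPM. In course B it stood at 1016 CPM at 18 h, 43.9 CPM at 22 h, 910 CPM at 26 h, 42.7 CPM at 30 h and 725 CPM at 34 h. In course B high and low libraries thus alternated every 4 h, and in course A the highest libraries of the 2 cycles lay 8 h apart. The fitted swing was 3.59 ± 0.47 (log2, standard error of the fit, 16 libraries, edgeR adjusted p = 0.000114) in course A and 4.03 ± 0.59 (10 libraries, edgeR adjusted p = 0.0113) in course B. Without the course B library of 30 h the adjusted p of ptr-4 there was 0.0528 (edgeR).

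Close behind ptr-4 came daf-6 and che-14, which are known from the glia of sense organs. DAF-6 shapes the channel through which the amphid neurons reach the outside, and CHE-14, a relative of the Hedgehog-releasing protein Dispatched, acts in apical secretion by skin and glial cells. The lowest, median and highest level of daf-6 were 3.62, 37.8 and 73.5 CPM in course A, and 4.07, 41.8 and 79.3 CPM in course B. For che-14 they were 3.65, 24.7 and 59.5 CPM in course A, and 3.59, 27.0 and 55.8 CPM in course B. Both genes were at their lowest at 27 or 36 h in course A and at 22 or 30 h in course B, and in both genes the libraries at 23 to 25 h and 30 to 33 h of course A were all above those at 27, 35 and 36 h. The swing of daf-6 was 3.72 ± 0.43 (log2, edgeR adjusted p = 6.79e-05) in course A and, in course B, 3.42 ± 0.64. For che-14 it was 3.26 ± 0.31 (edgeR adjusted p = 6.07e-06) and 3.62 ± 0.54 (edgeR adjusted p = 0.00945), respectively. The daf-6 call in course B was the least secure of the 8, with an edgeR adjusted p of 0.0331 that became 0.0517 to 0.129 when the library at 22, 26, 28, 30 or 34 h was left out.

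Next was ptc-3, a close relative of Patched that worms need for growth, molting and water balance. Its level in course A was 797 CPM at 24 h, 45.7 CPM at 27 h, 593 CPM at 32 h and 39.1 CPM at 36 h, with a median of 187 CPM. In course B it was 1297 CPM at 20 h, 140 CPM at 22 h, 1244 CPM at 26 h, 132 CPM at 30 h and 953 CPM at 34 h, with a median of 606 CPM. In course A the level had thus dropped several-fold within 3 h of the peak at 24 h. The swing was 3.21 ± 0.30 in course A (edgeR adjusted p = 3.34e-06) and 3.37 ± 0.44 in course B (edgeR adjusted p = 0.00503).

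The widest swings belonged to ptr-18 and ptr-16. PTR-18 is known to keep the Hedgehog-related protein GRL-7 from building up outside cells, and knockdown of ptr-16 disturbs molting. For ptr-18 the lowest, median and highest levels were 9.35, 93.9 and 511 CPM in course A and 20.1, 258 and 823 CPM in course B. For ptr-16 they were 3.14, 28.1 and 160 CPM in course A and 2.53, 47.8 and 228 CPM in course B. The highest ptr-16 library thus stood 50.8 times above the lowest in course A and 90.2 times above it in course B. The fitted swings in course A were 5.45 ± 0.25 for ptr-18 (edgeR adjusted p = 4.08e-09) and 5.58 ± 0.33 for ptr-16 (edgeR adjusted p = 2.91e-08). In course B they were 5.27 ± 0.51 (edgeR adjusted p = 0.00283) and 6.25 ± 0.80 (edgeR adjusted p = 0.00564). These placed ptr-16 at percentile 98.0 (course A) and 98.7 (course B) of all genes tested by swing.

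The smallest swing among the 8 was that of ptr-2, another PTR gene, whose lowest, median and highest levels were 15.9, 66.2 and 118 CPM in course A and 27.6, 62.0 and 174 CPM in course B. It amounted to 2.16 ± 0.25 in course A (edgeR adjusted p = 2.22e-05) and 2.78 ± 0.32 in course B (edgeR adjusted p = 0.00294). In course A its level was 92.5 CPM at 26 h and 28.0 CPM at 27 h, while after the later peak of 118 CPM at 34 h it was still 80.6 CPM at 35 h and 74.4 CPM at 36 h.

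Last in the cycle came ptr-23, whose product acts downstream of the mucin-like protein OSM-8 in the response to osmotic stress. In course A its level was 36.9 CPM at 23 h, when ptr-4 was at its highest, then 474 CPM at 26 h, 22.4 CPM at 31 h and 518 CPM at 35 h. In course B it was 450 CPM at 22 h, 57.5 CPM at 26 h, 627 CPM at 28 h, 33.9 CPM at 34 h and 257 CPM at 36 h. The libraries highest in ptr-23 were thus low in ptr-4, with Pearson's r between the log2 levels of the pair at -0.77 over 16 libraries and -0.74 over 10. The swing of ptr-23 was 3.79 ± 0.44 in course A (edgeR adjusted p = 3.40e-05) and 4.02 ± 0.37 in course B (edgeR adjusted p = 0.00240).

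The remaining 2 genes were not called cycling in either course. ptc-1, a Patched relative needed for cell division in the germline, had lowest, median and highest levels of 167, 198 and 292 CPM in course A and 210, 268 and 325 CPM in course B. Its lowest library of course A was that of 25 h and its highest that of 36 h, and in course B these were the neighbours at 20 and 22 h. Its swing of 0.40 ± 0.10 in course A passed the test (edgeR adjusted p = 0.0140) but not the minimum of 1, and in course B it was 0.08 ± 0.20 (edgeR adjusted p = 0.953). ptr-22 was scarce, with 5 to 151 counts per library. Its swing was 0.77 ± 0.56 (edgeR adjusted p = 0.528) and 1.41 ± 0.53 (edgeR adjusted p = 0.159), and neither passed the test at these counts.

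The peak times put the 8 cycling genes in the same order in both courses. In course A, within the window from 22 to 30 h, ptr-4 peaked at 23.2 h, daf-6 at 23.6 h, che-14 at 23.9 h, ptc-3 at 24.0 h, ptr-18 at 24.4 h, ptr-16 at 24.7 h, ptr-2 at 24.9 h and ptr-23 at 26.5 h. In course B, within the window from 25 to 33 h, the peaks lay at 25.8, 26.3, 26.5, 26.9, 27.2, 27.4, 27.4 and 29.0 h. Standard errors were 0.0634 to 0.159 h in course A and 0.120 to 0.234 h in course B. From ptr-4 to ptr-23 the span came to 3.32 ± 0.21 h for course A and 3.16 ± 0.22 h for course B.

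**Figure D2:**
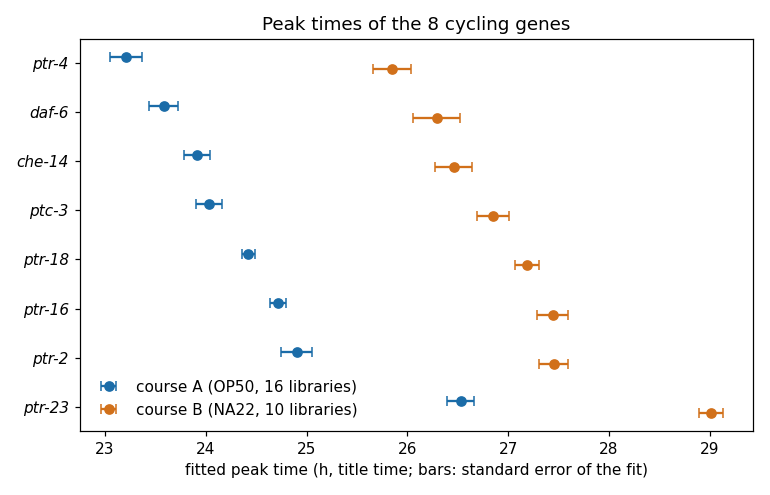
Fitted peak time in hours of title time for the 8 cycling genes, in order of their peak, with course A in blue and course B in orange and bars for the standard error of the fit. The order from ptr-4 to ptr-23 is the same in both courses, and each course B point lies 2.48 to 2.82 h to the right of its course A point.

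Not every neighbour in this order was apart from the next. In course A the gap exceeded 2 combined standard errors between ptc-3 and ptr-18 (0.390 h), between ptr-18 and ptr-16 (0.300 h) and between ptr-2 and ptr-23 (1.63 h). In course B it did so only between ptr-2 and ptr-23 (1.56 h), and the gap between ptr-16 and ptr-2 was 0.0100 h. With each library left out in turn, the whole order was unchanged in 16 of 16 fits of course A and in 4 of 10 fits of course B. ptr-4 was first and ptr-23 last in 16 of 16 and 10 of 10 fits. These genes share their libraries, so the standard errors of 2 genes are not independent.

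Some genes close in this order also had similar levels from library to library. Pearson's r of the log2 levels was 0.95 (course A) and 0.97 (course B) for daf-6 and che-14, and 0.95 in each for ptr-16 and ptr-18. For ptr-4 and daf-6 it was 0.90 and 0.94. Between ptr-4 and ptr-16 it was only 0.28 and 0.18. These are descriptions over 16 and 10 libraries that share time and depth.

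For each of the 10 genes the 2 named genes with the most similar levels were sought, by the mean over the 2 courses of Pearson's r of log2 levels, among 5719 named genes with a mean of at least 10 CPM in both. ptr-4 was closest to ptr-15 (mean r 0.988), another PTR gene, and to rml-3 (0.986). daf-6 was closest to nstp-3 (0.985) and acn-1 (0.979), che-14 to hhat-1 (0.977) and dtmk-1 (0.976), and ptc-3 to eat-20 (0.977) and the cuticle collagen gene rol-6 (0.970). ptr-18 was closest to cht-2 (0.990) and mam-3 (0.990), ptr-16 to lips-9 (0.984) and the collagen gene col-173 (0.981), ptr-2 to ntp-1 (0.955) and pps-1 (0.954), and ptr-23 to npr-40 (0.980) and chtb-3 (0.975). For the genes that did not cycle the likeness was weaker, with ptc-1 closest to ifa-1 (0.811) and glo-4 (0.797) and ptr-22 to tbc-10 (0.889) and nfki-1 (0.872).

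Levels between genes were set side by side per kilobase of exon, with exon lengths from the annotation named above, whose build may not be that of the counts. In course A the mean level was 100.3 CPM per kilobase for ptr-4, 58.1 for ptc-3, 56.6 for ptr-18, 47.6 for ptr-23, 41.8 for ptc-1, 21.9 for ptr-2, 19.2 for ptr-16, 11.7 for daf-6, 9.14 for che-14 and 0.702 for ptr-22. In course B ptr-4 (150 CPM per kilobase) and ptc-3 (140) stood highest and ptr-22 (1.02) lowest. For genes expressed in few cells, such as the glial gene daf-6, a low level in whole worms can come with few expressing cells: in whole worms, fewer cells of a type and less RNA per cell cannot be told apart.

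The second question was whether the genes change for good apart from the cycle. A trend was called where linear time had an edgeR adjusted p under 0.05 and the fitted change over 15 h was 1 or more on the log2 scale. ptr-22 fell in both courses, as did 12.7% of all genes tested in course A, 12.1% in course B and 7.84% in both. Its mean was 2.76 CPM from 21 to 28 h and 1.13 CPM from 29 to 36 h in course A, and its level in course B went from 6.43 CPM at 22 h to 0.429 CPM at 34 h. The later library was higher than the one 8 h earlier in 1 of 8 pairs of course A and 1 of 4 pairs of course B. The change over 15 h was -2.42 ± 0.73 in course A (edgeR adjusted p = 0.0124) and -2.52 ± 0.52 in course B (edgeR adjusted p = 0.00438), on the few counts given above. It was called in 16 of 16 and 10 of 10 fits that left out a library. Paired with the library 8 h earlier, the fall of ptr-22 in course B was -1.43, a change over 8 h and not 15 h. It was not called because it missed the adjusted p (edgeR adjusted p = 0.103, 4 pairs).

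ptr-2 rose in course A by 1.23 ± 0.30 (edgeR adjusted p = 0.00338), as did 21.1% of all genes tested there. The later library of a pair 8 h apart was the higher one in 6 of 8 pairs, with means of 54.4 CPM from 21 to 28 h and 72.9 CPM from 29 to 36 h. Without the library of 36 h the change was 0.84, below the minimum. Paired with the library 8 h earlier it was 0.60 (edgeR adjusted p = 0.0376). That value is a change over 8 h and not 15 h, so its size cannot be set beside the others. In course B the change of ptr-2 was -0.02 ± 0.30 (edgeR adjusted p = 0.955), and 0 of 4 pairs were higher later. The difference of the trends between the courses, -1.20 ± 0.47, did not pass (edgeR adjusted p = 0.270). Of the 10 genes 0 were called for such a difference by edgeR, the one tool run, with 1 (ptr-2) at an unadjusted p under 0.05, and 0.541% of all genes tested were called.

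No other gene of the 10 was called for trend in either course. ptc-1 had a change of 0.46 ± 0.12 in course A (edgeR adjusted p = 0.00520), below the minimum, and of 0.04 ± 0.17 in course B. For the other 7 genes the values ran from -0.45 (ptr-4) to 0.67 (ptr-16) in course A and from -0.69 (ptr-23, ptr-4) to 0.11 (ptr-16) in course B, with edgeR adjusted p from 0.158 to 0.951. In course A the highest libraries of the earlier and the later cycle were 701 and 679 CPM for ptr-4, 160 and 156 CPM for ptr-16, and 474 and 518 CPM for ptr-23. They were further apart for ptc-3, at 797 and 593 CPM, and for ptr-18, at 511 and 394 CPM. In course B the highest level of ptr-18 was 823 CPM from 20 to 26 h and 381 CPM from 28 to 34 h, and that of ptr-16 was 228 and 114.6 CPM. These windows leave out the course B library of 36 h, in which ptr-18 stood at 471 CPM and ptr-16 at 126 CPM. Sampling 2 h apart can miss the top of a peak. Without the course B library of 18 h the change of ptr-18 was -1.07 (edgeR adjusted p = 0.0182), and without that of 20 h the change of ptr-23 was -1.01 (edgeR adjusted p = 0.0337), both past the minimum.

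The third question was how the courses, which differ in bacterium and medium, compare. By title time, course B peaks of the 8 genes came 2.48 h (ptr-23) to 2.82 h (ptc-3) after those of course A, with a median of 2.67 h. Over the 2457 genes cycling in both courses the median offset was 2.73 h and the 5th to 95th percentiles were 2.12 and 3.18 h, so the 8 genes lay inside that range. By harvest time course A lies 1 h later, which takes 1 h from each offset. For the next test an offset of 3 h was set from peak times seen earlier in these data. A shared shift near 3 h was thus removed beforehand and is not tested. Beyond that offset, a difference of the cosine and sine between the courses was called for 0 of the 10 genes. The edgeR adjusted p ran from 0.680 to 0.931, 0 of 10 had an unadjusted p under 0.05, and 0.0809% of all genes tested were called. The swing differed between the courses by at most 1.54 standard errors, with ptr-2 at 0.62 ± 0.40 and ptr-16 at 0.67 ± 0.86 (course B minus course A, log2). Errors of 0.40 to 0.86 leave room for differences of that size and larger.

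ptc-3 was the gene that differed in level. The level in the middle of the cycle and at 28 h, fitted to all 26 libraries with a curve for each course, was higher in course B by 1.07 ± 0.19 (log2, edgeR adjusted p = 7.65e-05). Of all genes tested, 2.45% were called higher and 13.5% lower in course B, and the median gene lay at -0.13, so that ptc-3 stood 1.20 above it. Of all such calls 15.4% were higher in course B. The share was 5.71% with total counts and 37.6% against course A 3 h earlier. With limma on the deposited log2 values it was 66.6%, with the median gene at 0.06. Those values are scaled to the average total of each course, which was higher in course B. This scaling raises every gene of course B, so the limma share cannot be compared with the others. Against the course A library taken 3 h earlier by title, ptc-3 was higher in course B in 7 of 7 pairs, averaging 615 CPM against 262 CPM, and the fitted difference was 1.17 (edgeR adjusted p = 0.00118). With total counts as the only scaling the difference was 0.80, under the minimum, with the median gene at -0.41. At the 8 title times both courses share, which are out of phase, it was 1.06 with time as a block (edgeR adjusted p = 0.408).

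For the other 9 genes the difference stayed under the minimum. ptr-18 was at 0.59 ± 0.19 (edgeR adjusted p = 0.0135) and ptc-1 at 0.38 ± 0.08 (edgeR adjusted p = 0.000209), and ptc-1 was higher in course B in 7 of 7 pairs 3 h apart. In those pairs ptr-2 was also higher in 7 of 7, averaging 75.5 CPM against 56.7 CPM, and ptr-18 and ptr-23 in 6 of 7. The fitted difference of ptr-2 was only 0.09 (edgeR adjusted p = 0.654). The pairs use course A libraries 2 h apart from 21 to 33 h, and ptr-23 averaged 105.5 CPM in them against 162.9 CPM over all of course A. By total counts alone ptr-18 was at 0.32 (edgeR adjusted p = 0.140) and ptc-1 at 0.11 (0.176). The other 7 ran from -0.15 ± 0.21 (che-14) to 0.37 ± 0.23 (ptr-23), with edgeR adjusted p from 0.171 to 0.784. Bacterium, medium and other differences between the courses cannot be told apart as sources of the ptc-3 difference.

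**Figure D3:**
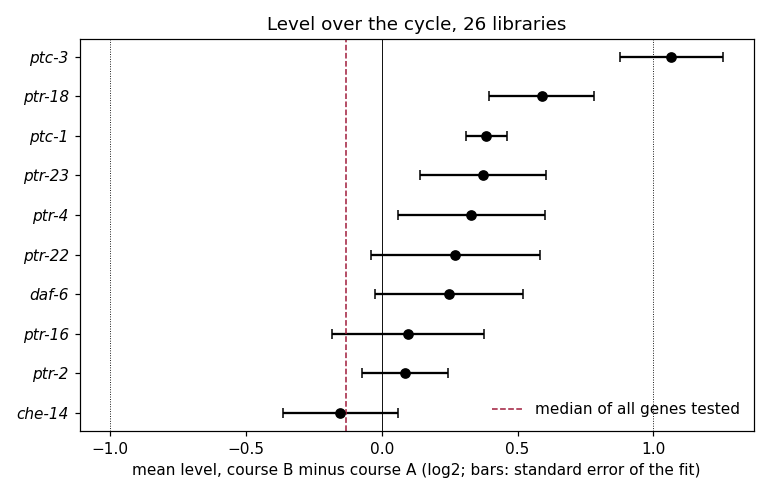
Difference in the fitted mean level between the courses (course B minus course A, log2) for the 10 genes, with bars for the standard error of the fit, the median of all genes tested as a dashed line and the minimum of 1 in either direction as dotted lines. ptc-3 at 1.07 is the one gene past the dotted line, and che-14 at -0.15 lies next to the median gene.

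Most other genes of the family cycled too. Of 19 other names in the family 18 were in the table, and 13 of the 18 cycled in both courses. Thus 21 of all 28 patched-related genes did, where 16.5% of all genes tested did. The 18 had a median swing of 3.35 (course A) and 3.10 (course B). ptr-17 had the widest, 5.16 and 5.66 (log2), followed in course A by the glial gene ptr-10 at 4.53 and ptr-8 at 4.37, which had swings of 5.13 and 3.81 in course B. Of the 13, 5 peaked before 24 h in course A (ptr-9, ptr-10, ptr-11, ptr-15 and ptr-19), 4 between 24 and 26 h (ptr-1, ptr-6, ptr-17 and ptr-20) and 4 later (ptr-3, ptr-8, ptr-12 and ptr-13). The 5 that did not cycle in both were ptr-5, ptr-14, ptr-21, ptr-24 and ptd-2, of which ptr-14 was called in course B. ptr-24 passed the test in both courses (edgeR adjusted p = 0.00242 and 0.00657), but its swings of 0.86 and 0.92 were under the minimum. In course A ptr-14 also passed the test (edgeR adjusted p = 0.0133), with a swing of 0.76. ptr-5, ptr-21 and ptd-2 did not pass the test in either course. Of the 18, ptr-13 and ptr-5 fell in both courses, where 7.84% of all genes tested did. The changes were -2.80 and -1.87 for ptr-13 and -1.01 and -1.29 for ptr-5 (log2 over 15 h).

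**Figure D4:**
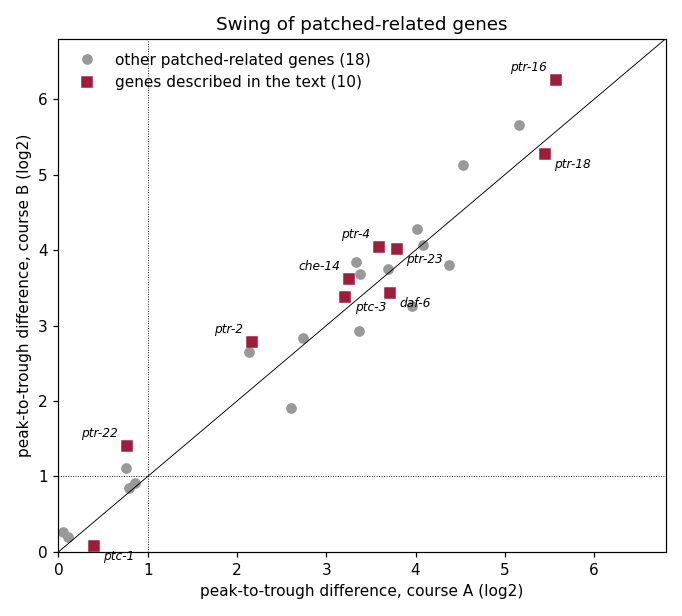
Fitted peak-to-trough difference (log2) in course A against course B for the 10 genes described (red squares, named) and the 18 other patched-related genes (grey circles), with dotted lines at the minimum of 1 and a line of equal values. ptr-16 and ptr-18 lie at the upper end at 5.27 or more, with the grey circle of ptr-17 (5.16 in course A and 5.66 in course B) close by. ptc-1 lies near 0, and most genes lie along the line of equal values.

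Genes that act in the same processes were read beside the family from fixed lists. Of 40 Hedgehog-related genes tested in both courses, 34 cycled in both, where 16.5% of all genes tested did. Their median peaks lay at 24.6 h (course A) and 27.2 h (course B), beside 24.2 and 27.0 h for the 8 patched-related genes. grd-6 peaked at 26.5 h, with ptr-23 (swing 6.93), and grl-21 at 27.4 h (6.71). grl-7, whose product PTR-18 keeps in check, had swings of 6.71 and 6.13 and peaks at 24.0 and 26.9 h, shortly before ptr-18. Of these 40 genes 3 rose in both courses, where 15% of all genes did, grl-27 and wrt-6 with the largest changes in course A at 7.38 and 4.70. Of 15 molting genes 14 cycled and 3 fell in both courses, where 16.5% of all genes cycled and 7.84% fell. mlt-10 peaked at 24.1 h in course A, mlt-11 at 22.7 h and noah-1 at 22.7 h, while fbn-1, the fibrillin-related matrix gene, peaked at 29.4 h, at the end of the 8 h window and so shortly before mlt-11 and noah-1 in the cycle. Of 9 apical matrix genes 8 cycled and 6 fell in both courses, where 7.84% of all genes fell. The 3 molting genes that fell, noah-1, noah-2 and fbn-1, are also 3 of these 6, so the counts are not separate. The apical matrix genes that fell included lpr-3, which encodes a lipocalin, with a peak at 22.4 h, and let-653 at 29.6 h, again at the end of the window. Of 4 other genes for sterol-sensing proteins 0 cycled in both, and 1 cycled in course A. One of them, ncr-2, which encodes a relative of the Niemann-Pick C1 protein, rose by 7.96 in course A and 7.87 in course B.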

How the data were processed

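The deposited data are raw counts per gene and the authors' log2 values. Each log2 value could be rebuilt from its count by scaling the library to the average total of the course and adding 8; the results differed from the deposited values by at most 5e-05. The RNA was depleted of ribosomal RNA and made into libraries with the ScriptSeq v2 kit, per the labels. What aligner, counter, annotation and build were used is not given in the sources used here, so reads of similar genes may be shared, and no coordinates are printed. The limit of 3 counts covers counting error only, and each ± value is a standard error of the fit.

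Counts were fitted in R 4.3.3 with edgeR 4.0.16 (robust quasi-likelihood F test, TMM factors, at least 10 counts in 3 libraries or more), with p-values adjusted over all genes tested. Each course was fitted apart; course differences used all 26 libraries, with an offset of 3 h for the cycle. The procedure was tried on simulated counts in which few genes changed, unlike these data, and no result here rests on that trial. All 10 genes are described. From each other list (other patched-related, Hedgehog-related, sterol-sensing, molting and apical matrix genes) the 3 cycling genes with the widest swing and the 2 with the largest trend in course A are named. For each of the 10 genes the 2 most similar genes are named. The other family members named by peak time or as not cycling were named after their values were seen. Members and lists were chosen with earlier results of these data known. Alternatives were DESeq2 1.42.0, limma 3.58.1 on the deposited log2 values, other scalings, filters, periods and offsets, harvest times, paired fits and leaving out each library.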

Additional observations from a re-analysis of the deposited data

How the results depend on the processing

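The 8 cycling genes were called in both courses with total counts, DESeq2 size factors, DESeq2, limma on the deposited log2 values and no low count filter. With each library left out the count was 8 to 8 for course A and 6 to 8 for course B. At the 8 title times both courses share, 5 of the 10 genes were called in course A (8 at an unadjusted p under 0.05), while the calls over all genes went from 3619 to 1441. With a period of 7 h or 9 h, 0 were called in course B by edgeR, the one tool run there (8 and 4 at an unadjusted p under 0.05). Over all genes the course B calls went from 3147 to 36 and 0. In course A, 7 of the 10 genes were called with 7 h and 8 with 9 h. Over all genes the course A calls went from 3619 to 2054 and 3923, so they do not single out 8 h against 9 h. With quadratic time daf-6 missed the threshold in course B (edgeR adjusted p = 0.0616). With each library left out, there were 1 to 3 trend calls in course A and 1 to 2 in course B. Paired by place in the cycle 8 h apart, they were 1 in course A and 0 in course B (4 at an unadjusted p under 0.05). All changes in that fit are over 8 h and not 15 h, against the same minimum of 1. In it ptr-2 in course A was at 0.60, under the minimum, and ptr-22 in course B missed the adjusted p. Over all genes, that fit made 3058 trend calls against 5375 for course A, and 1452 against 4224 for course B. For the level between the courses, 3 genes were called with no fold minimum, 0 with total counts and 0 at the 8 shared times with or without time as a block, with 1 at an unadjusted p under 0.05 in each of the last 3 fits. Over all genes the level calls numbered 2562, then 9393 with no fold minimum, 3466 with total counts, and 1491 and 936 at the shared times with and without the block. For the cycle between the courses, 8 of the 10 genes were called with no offset and 1 with an offset of 2 h, beside 5960 and 481 of 16076 genes tested. The cause of these changes was not tested. No paired analysis by replicate number was possible because no time was sampled more than once. Depth limits what can be said of ptr-22, with 5 to 151 counts per library.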

Other observations

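The shape of the cycle was examined in course A by adding a cosine and sine of 4 h. These terms were called for 0 of 15888 genes tested by edgeR (647 at an unadjusted p under 0.05), the one tool run. Among the 10 genes, daf-6 (unadjusted p = 0.00216, adjusted p = 0.552) and ptc-3 (unadjusted p = 0.00871, adjusted p = 0.864) had the lowest values. In those fits daf-6 took 3 h from its lowest to its highest level and 5 h back, whereas ptc-3 took 4.95 h up and 3.05 h down. che-14, whose levels were much like those of daf-6, took 4.65 h up and 3.35 h down. As none of these terms was called, the differences in shape are not established.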
